A study of Mus musculus with 10 samples.

Results

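Imprinted genes are expressed mainly from the copy inherited from 1 parent, and the 50 mouse genes described here were taken by symbol from a list of well-known imprinted genes. This list was chosen with earlier results of these data known. Each symbol matched 1 Ensembl identifier, so that 50 of the 53801 genes counted are members. Of these, 48 passed the filter on low values (a mean of at least 10 normalized counts over the 10 libraries), against 16227 genes in all. The members fall into 21 imprinted domains on 11 chromosomes, with 20 on chromosome 7, 7 on chromosome 6 and 6 on chromosome 12. By common knowledge of the mouse, 28 are expressed from the paternal copy, 20 from the maternal copy, and 2 (Gnas and H13) differ between isoforms. For 12 of the 50, imprinting is known mainly from particular tissues such as brain or placenta.

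RNA was sequenced from mouse embryonic fibroblasts (MEFs), connective tissue cells grown from C57BL/6 embryos (C57BL/6J by the study's methods) at day 13.5 after removal of head, liver and heart. The groups were 3 MIDEAS-/- lines with 3 MIDEAS+/+ lines, and 2 DNTTIP1-/- lines with 2 DNTTIP1+/+ lines. Both knockout alleles are small germline deletions in the coding sequence made by CRISPR, homozygous in every cell of the line, and the wild-type lines were made from embryos of the same allele's colony. MIDEAS and DNTTIP1 are subunits of MiDAC, a histone deacetylase complex with HDAC1 or HDAC2, and the comparison asks how imprinted genes behaved in each knockout against its own wild types. The labels number the lines but do not say which embryo each came from, so p-values measure the spread between these libraries. Counts were summed over both parental copies of each gene, so the parental copy named below is background and was not measured.

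Libraries held 12339970 to 19761295 reads. Dnttip1 had 197 and 173 normalized counts in DNTTIP1-/- MEFs, against 434 and 443 in DNTTIP1+/+ MEFs (log2 fold change -1.25, standard error 0.16, adjusted p = 0.0594, limma). Elmsan1, the gene that encodes MIDEAS, had 1038, 1728 and 1590.4 normalized counts in MIDEAS-/- MEFs, against 1272, 1332 and 1576 in MIDEAS+/+ MEFs (log2 fold change 0.03, standard error 0.21, adjusted p = 0.965, limma), so its level does not check the labels of these lines. MIDEAS-/- replicate 1 stood apart, with 9.38% of its reads in its 10 most abundant genes against 5.14% to 6.50% in the other 9 libraries. Xist, which marks cells with 2 X chromosomes, was at 0 in MIDEAS+/+ replicate 1, DNTTIP1-/- replicate 1 and DNTTIP1+/+ replicate 1, and these 3 libraries carried the Y-linked Ddx3y at 1486 to 1823 normalized counts. In the DNTTIP1 family sex and replicate number therefore cannot be told apart. All 10 fibroblast markers listed for this study were detected at a summed 53440.4 to 71181 normalized counts per library, whereas the 5 erythroid and 4 trophoblast markers each averaged below 10. The sum hides shifts of single markers. Pdgfra had 2144, 1885 and 2809 in MIDEAS-/-, against 1052, 208 and 1057 in MIDEAS+/+ MEFs (adjusted p = 0.125, limma). Lum averaged 1428 against 297 (adjusted p = 0.0716, limma), and Fn1 13929.5 against 18749. Of the 10, 4 had log2 fold changes above 0 in MIDEAS-/- MEFs. In bulk RNA, fewer cells of a type and less RNA per cell cannot be told apart.

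Genomic imprinting rests on methylation of control regions that is set in 1 germ line and kept on that parental copy in the embryo, and the domains it governs often pair a protein-coding gene of 1 parental copy with a noncoding RNA of the other. Many paternally expressed members promote fetal growth (Igf2, Peg3, Mest, Dlk1), and several maternally expressed members restrain it (H19, Igf2r, Grb10, Cdkn1c). Most are highly expressed in embryonic mesenchyme and decline after birth, so fibroblasts of midgestation embryos are a tissue in which they can be measured.

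More imprinted genes were higher than lower in both knockouts, and the median change was larger for the paternally than for the maternally expressed ones. In MIDEAS-/- MEFs, 5 of the 48 tested members rose and 0 fell (limma, adjusted p under 0.1 over all genes), where 3.36% of all genes were called higher and 2.29% lower. The 5 were Dlk1, Zim1, Plagl1, Cdkn1c and Rtl1. In DNTTIP1-/- MEFs 0 of 48 were called by limma, where 0.0247% of all genes were called higher and 0.00616% lower. At an unadjusted p under 0.05, 13 members were higher in each knockout and 0 were lower, where 8.82% of all genes were higher in MIDEAS-/- and 4.38% in DNTTIP1-/- MEFs, and 7.83% and 2.09% were lower. At an adjusted p under 0.1, edgeR's quasi-likelihood test called 4 and 0 members, all higher, where it called 3.19% and 0.0247% of all genes higher, and DESeq2's Wald test called 11 and 4, all higher, where it called 5.92% and 0.968% of all genes higher. The 4 that DESeq2 called in DNTTIP1-/- MEFs were Igf2, Peg3, Zim1 and Peg10. The count in MIDEAS-/- MEFs depended on single libraries, since limma called 3 members without MIDEAS-/- replicate 1 or replicate 3 and 2 members without MIDEAS-/- replicate 2 or MIDEAS+/+ replicate 2, all of them among the 5.

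The direction was the same by simple counts of libraries. The log2 fold change was above 0 for 34 of 48 members in MIDEAS-/- (46.4% of all genes) and for 38 of 48 in DNTTIP1-/- MEFs (50.1% of all genes). Every MIDEAS-/- library lay above every MIDEAS+/+ library for 16 members (11.5% of all genes) and below for 3 (11% of all genes). In the DNTTIP1 family the same held for 22 members above (20.1% of all genes) and 4 below (18.9% of all genes). The 13 members without overlap in both families on the higher side were Igf2, Airn, Usp29, Zim1, Peg10, Plagl1, Mest, Dlk1, Rtl1, Cdkn1c, Gnas, Zrsr1 and Nap1l5, where 5.09% of all genes met this. Blcap and H13 were the 2 members below in both.

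Split by parental copy, the median log2 fold change of the 27 tested paternally expressed members was 0.36 in MIDEAS-/- and 0.66 in DNTTIP1-/- MEFs. The median of the 19 tested maternally expressed members was 0.04 and 0.14. Over all genes tested the median was -0.02 and 0.00. Of the 27 paternally expressed members, 11 were higher at an unadjusted p under 0.05 (limma) in MIDEAS-/- and 9 in DNTTIP1-/- MEFs. Of the 19 maternally expressed ones, 2 and 3 were, where 8.82% and 4.38% of all genes were. Without the tissue-restricted members, the medians were 0.45 and 0.67 for 25 paternally expressed members and 0.09 and 0.23 for 12 maternally expressed ones. In DNTTIP1-/- MEFs 84.0% of these paternal and 83.3% of these maternal members were above 0 (50.1% of all genes). The shares in MIDEAS-/- MEFs were 84.0% and 66.7% (46.4% of all genes). The difference between paternal and maternal members was not tested. Summed over all 50 members, imprinted genes took 0.472%, 0.533% and 0.545% of the counts in MIDEAS-/- libraries, against 0.470%, 0.410% and 0.442% in MIDEAS+/+ libraries. The shares were 0.477% and 0.550% in DNTTIP1-/- libraries, against 0.387% and 0.419% in DNTTIP1+/+ libraries. Knockout libraries were all above their wild types in this share in both families.

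**Figure D1:**
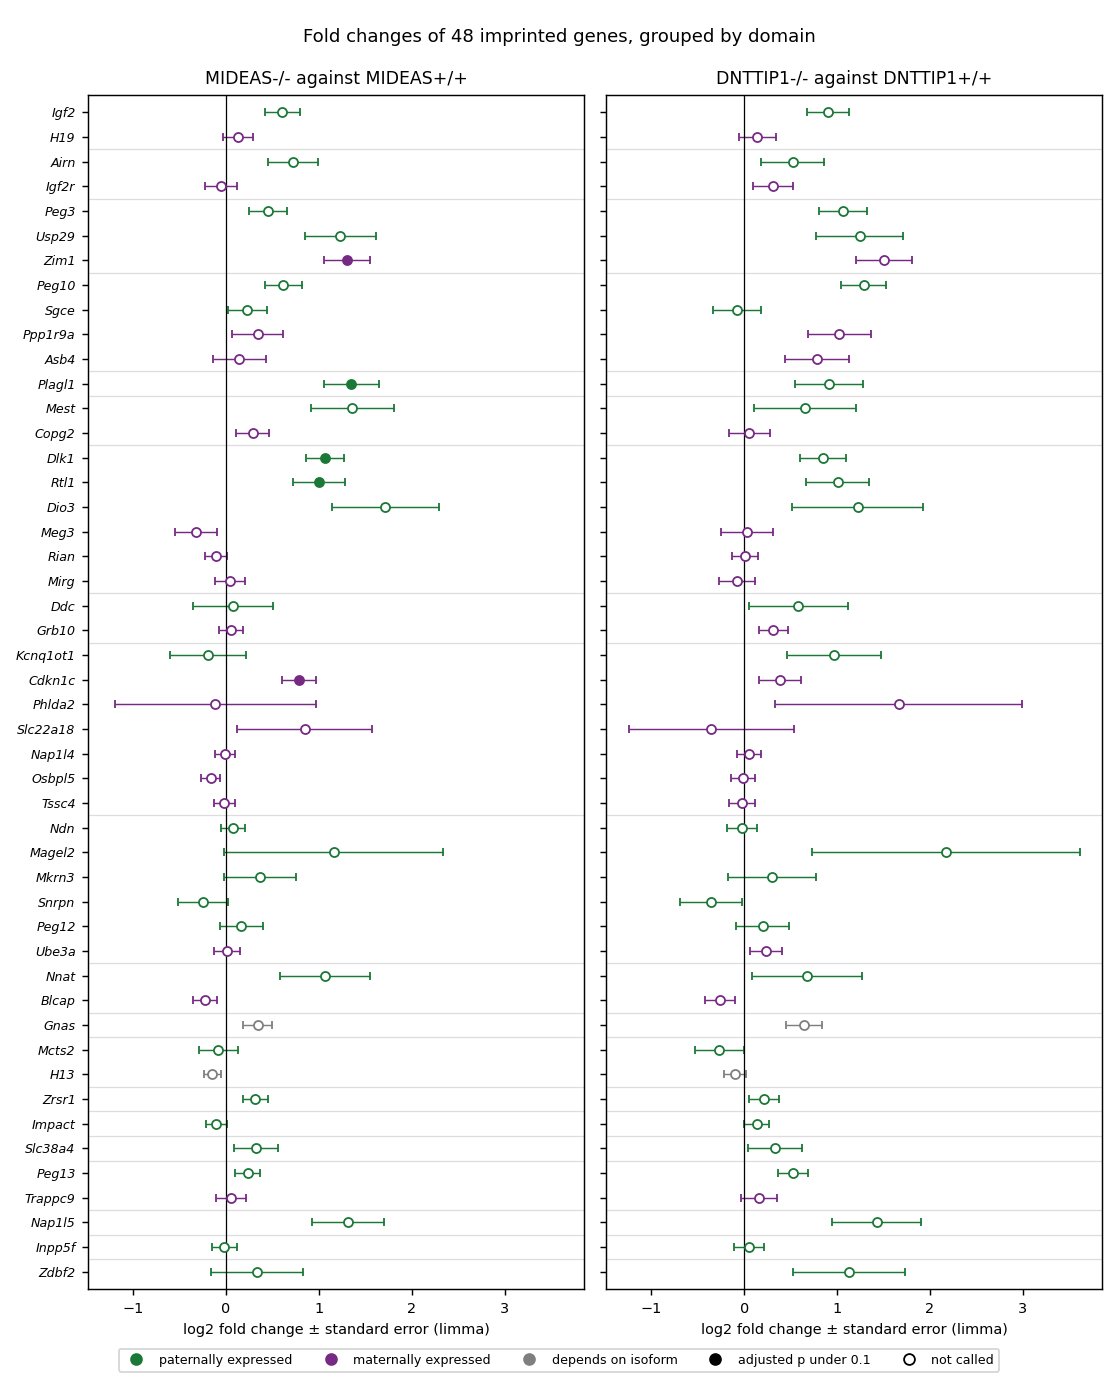
Log2 fold changes of the 48 tested imprinted genes (points, with standard errors from limma) in MIDEAS-/- against MIDEAS+/+ and in DNTTIP1-/- against DNTTIP1+/+ MEFs, grouped by domain with thin lines between domains and coloured by the parental copy that is expressed. Filled points mark the 5 members called at an adjusted p under 0.1, all in MIDEAS-/-, and most points of both panels lie right of 0.

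In the Dlk1/Meg3 domain on chromosome 12, limma called 2 of 3 paternally expressed genes higher in MIDEAS-/- MEFs and 0 of 3 maternally expressed ones. Of all genes, 3.36% were called higher there. The call of Rtl1 was at the edge of the threshold, and 0 of the 6 members were called in DNTTIP1-/- MEFs. The domain holds 3 paternally expressed protein-coding members and 3 maternally expressed noncoding RNAs, all of which passed the filter. Dlk1 (ENSMUSG00000040856, chr12:109452823-109463336, plus strand) encodes a transmembrane Delta-like protein that holds back preadipocyte differentiation. It had 3446, 2233 and 2621 normalized counts in MIDEAS-/- MEFs, against 1607, 969 and 1415 in MIDEAS+/+ MEFs, so every knockout library lay above every wild-type library. It had a mean of 2767 ± 619 in MIDEAS-/- and 1330.3 ± 327 in MIDEAS+/+ MEFs (SD, n = 3 each) and a log2 fold change of 1.06 ± 0.20 (standard error) at an adjusted p of 0.0274 (limma), and Dlk1 was called with any 1 of the 10 libraries left out (adjusted p from 0.0298 to 0.0915). Dlk1 had 3546 and 3605 normalized counts in DNTTIP1-/- MEFs, against 2161 and 1825 in DNTTIP1+/+ MEFs (log2 fold change 0.85, standard error 0.25, adjusted p = 0.479). The 5 listed adipocyte markers summed to 594 to 1219 normalized counts in MIDEAS-/-, against 489 to 585 in MIDEAS+/+ MEFs, and to 788 to 1386 in DNTTIP1-/-, against 353 to 813 in DNTTIP1+/+ MEFs, while Adipoq and Plin1 averaged below 10. The higher sum in MIDEAS-/- MEFs was that of Cebpa (mean 755 against 327), whereas Fabp4 was lower in every MIDEAS-/- library (mean 73.7 against 144) and Pparg averaged 69.7 against 73.3, none of them called. The part of such cells in the Dlk1 level was not tested.

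Rtl1 (ENSMUSG00000085925, chr12:109589193-109600330, minus strand), a gene derived from a retrotransposon and needed in placental vessels, had 173, 176 and 113 normalized counts in MIDEAS-/- MEFs, against 103, 63.4 and 64.1 in MIDEAS+/+ MEFs. The groups did not overlap, and the change was called at the edge of the threshold (log2 fold change 1.00, standard error 0.28, adjusted p = 0.0917, limma). The call was lost without any of 8 of the 10 libraries, that is without each library except MIDEAS-/- replicate 3 and MIDEAS+/+ replicate 1 (adjusted p from 0.107 to 0.324, and from 0.0143 to 0.324 over all settings tried). Rtl1 had 143 and 137 normalized counts in DNTTIP1-/- MEFs, against 65.4 and 73.1 in DNTTIP1+/+ MEFs (log2 fold change 1.01, standard error 0.34, adjusted p = 0.573), a fold change of nearly the same size. Rtl1 lies opposite 6 microRNA genes of the maternal copy, whose products pair with its transcript. The Rtl1 exons hold them on the other strand, and where counting did not use strand, reads of both cannot be told apart. An arm of each of the 6 is shown to give the sequences that lie across Rtl1, as RNA 5′ to 3′ from RefSeq (GRCm38.p6), with the seed (bases 2 to 8) in capitals. They lie on the plus strand of chromosome 12 between chr12:109590459-109590479 and chr12:109595331-109595352, and no 2 of these arms share a seed. Mature microRNAs were not measured here.
mmu-miR-431-5p: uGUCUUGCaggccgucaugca
mmu-miR-433-3p: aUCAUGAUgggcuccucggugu
mmu-miR-127-3p: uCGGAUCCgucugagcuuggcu
mmu-miR-434-3p: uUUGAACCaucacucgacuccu
mmu-miR-432: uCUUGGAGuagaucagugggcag
mmu-miR-136-5p: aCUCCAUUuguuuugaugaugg

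Dio3, which encodes the deiodinase that inactivates thyroid hormone, had 505, 257 and 142 normalized counts in MIDEAS-/- MEFs, against 128, 50.1 and 79.0 in MIDEAS+/+ MEFs. All 3 knockout libraries were higher than all 3 wild-type libraries, but the knockout values spread widely and Dio3 was not called (log2 fold change 1.72, standard error 0.57, adjusted p = 0.158, limma). Dio3 had 467 and 183 normalized counts in DNTTIP1-/- MEFs, against 207 and 75.1 in DNTTIP1+/+ MEFs. These groups overlapped, and replicate 1 was above replicate 2 in both genotypes.

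The 3 maternally expressed RNAs of the domain were past an unadjusted p of 0.05 in neither knockout. Meg3, a long noncoding RNA whose promoter region is a control element of the domain, had 3816, 6179 and 3573 normalized counts in MIDEAS-/- MEFs, against 6010.1, 5136 and 5406 in MIDEAS+/+ MEFs (log2 fold change -0.33, standard error 0.23, adjusted p = 0.523, limma). MIDEAS-/- replicate 2 was the highest of these 6 libraries and the other 2 knockout libraries the lowest. Rian, the host of a snoRNA cluster, had 4764, 5014 and 5206 normalized counts in MIDEAS-/- MEFs, against 6202, 5093 and 4931 in MIDEAS+/+ MEFs, with a log2 fold change of -0.11 (standard error 0.12). Mirg, the host of 14 of the annotated microRNA hairpins, had a log2 fold change of 0.04 (standard error 0.16). In DNTTIP1-/- MEFs the log2 fold changes of Meg3, Rian and Mirg were 0.03, 0.01 and -0.08, none of them called. The ratio of Dlk1 to Meg3 counts, which does not depend on how libraries were scaled and is not corrected for transcript length, was 0.903, 0.361 and 0.734 in MIDEAS-/- MEFs, against 0.267, 0.189 and 0.262 in MIDEAS+/+ MEFs. It was 1.20 and 0.957 in DNTTIP1-/- MEFs, against 0.820 and 0.451 in DNTTIP1+/+ MEFs. The ratio of Rtl1 to Rian counts was 0.0364, 0.0350 and 0.0217 in MIDEAS-/- MEFs, against 0.0165, 0.0124 and 0.0130 in MIDEAS+/+ MEFs, and 0.0309 and 0.0280 in DNTTIP1-/- MEFs, against 0.0146 and 0.0147 in DNTTIP1+/+ MEFs. For both ratios the knockout libraries lay above their own wild types in both families. The ratio of Dio3 to Meg3 counts did so in the MIDEAS family alone. It was 0.159 and 0.0485 in DNTTIP1-/- MEFs, against 0.0784 and 0.0186 in DNTTIP1+/+ MEFs. In other domains, the ratios of Igf2 to H19, Peg10 to Sgce and Airn to Igf2r overlapped between genotypes of the MIDEAS family. Those of Zim1 to Peg3, Usp29 to Peg3, Cdkn1c to Nap1l4, Mest to Copg2 and Nnat to Blcap did not.

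**Figure D2:**
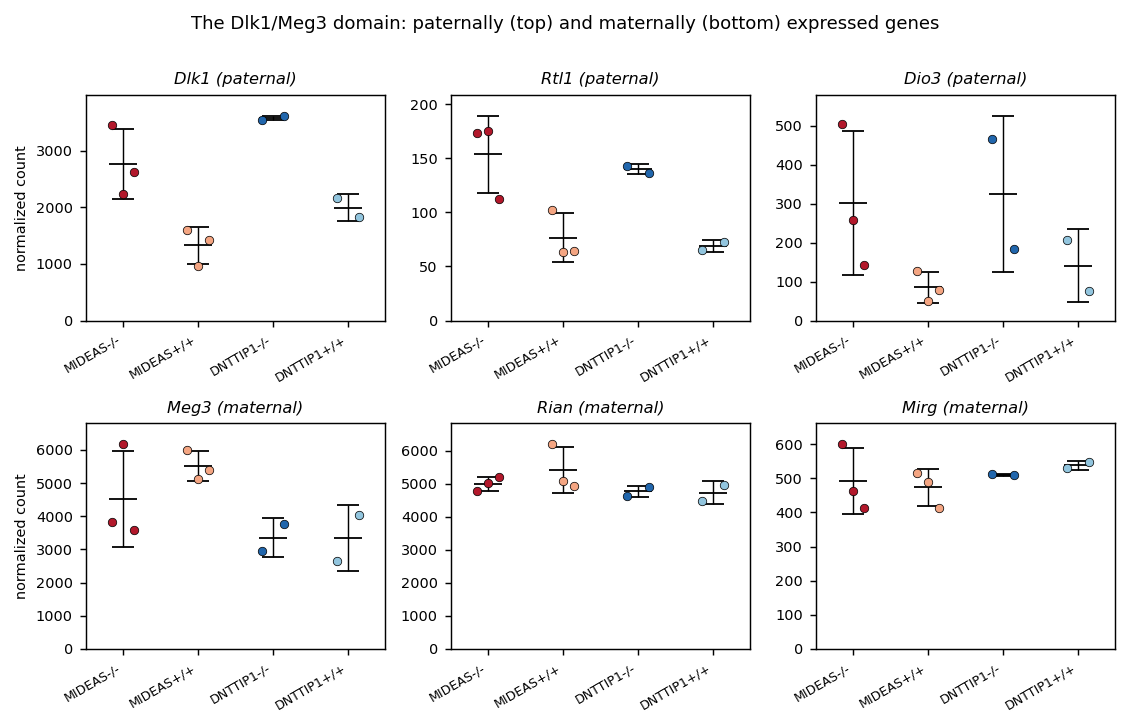
Normalized counts of 6 genes of the Dlk1/Meg3 domain in each library (points), with the mean and SD of each group (bars). The upper row holds the paternally expressed Dlk1, Rtl1 and Dio3, where MIDEAS-/- points lie above all MIDEAS+/+ points, and the lower row the maternally expressed Meg3, Rian and Mirg, where the groups of the MIDEAS family overlap.

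The promoters of Dlk1 and Meg3 are shown because Dlk1 was called and Meg3, expressed from the other parental copy, was not. The windows are from RefSeq (GRCm38.p6), run 5′ to 3′ from 250 bases before to 50 bases after a transcript start, and have each CG dinucleotide, the site of DNA methylation, in capitals. The Dlk1 window (chr12:109452573-109452872, plus strand) holds 9 CG dinucleotides. The Meg3 window (chr12:109540746-109541045, plus strand), the richer in CG of its 2 windows, holds 13.
Dlk1: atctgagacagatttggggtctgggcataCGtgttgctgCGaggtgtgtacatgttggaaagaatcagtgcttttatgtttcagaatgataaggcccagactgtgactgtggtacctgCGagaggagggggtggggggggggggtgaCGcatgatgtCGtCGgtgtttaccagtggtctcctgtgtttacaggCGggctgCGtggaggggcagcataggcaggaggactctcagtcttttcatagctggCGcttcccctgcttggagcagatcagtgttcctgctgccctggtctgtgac
Meg3: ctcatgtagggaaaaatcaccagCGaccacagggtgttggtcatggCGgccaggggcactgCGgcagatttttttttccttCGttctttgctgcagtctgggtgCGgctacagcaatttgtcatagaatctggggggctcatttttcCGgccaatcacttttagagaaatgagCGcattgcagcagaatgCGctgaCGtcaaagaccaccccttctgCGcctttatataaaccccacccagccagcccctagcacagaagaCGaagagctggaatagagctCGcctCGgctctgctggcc

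In the Peg3 domain on chromosome 7, all 3 members had log2 fold changes above 0 in both knockouts, and the maternally expressed one was called in MIDEAS-/- MEFs. Zim1 (ENSMUSG00000002266, chr7:6671269-6696450, minus strand), a zinc finger gene expressed from the maternal copy, had 1573, 1879.7 and 1777 normalized counts in MIDEAS-/- MEFs, against 981, 595 and 603 in MIDEAS+/+ MEFs. The groups were separate, with a mean of 1743 ± 156 in MIDEAS-/- and 726 ± 220.4 in MIDEAS+/+ MEFs (SD, n = 3 each), and a log2 fold change of 1.30 ± 0.25 (standard error) at an adjusted p of 0.0278 (limma). The call was lost without MIDEAS-/- replicate 2 (adjusted p = 0.103) or MIDEAS+/+ replicate 2 (adjusted p = 0.116), and the adjusted p ran from 0.000139 to 0.116 over all settings tried. Zim1 had 773 and 1328 normalized counts in DNTTIP1-/- MEFs, against 297 and 426 in DNTTIP1+/+ MEFs, the larger of its 2 log2 fold changes though not called (log2 fold change 1.51, standard error 0.31, adjusted p = 0.209, limma). The 2 families started from different levels of Zim1, since all 3 MIDEAS+/+ libraries were above both DNTTIP1+/+ libraries.

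Peg3, a zinc finger protein of the paternal copy, had 5244, 7347 and 8705 normalized counts in MIDEAS-/- MEFs, against 5586, 4744 and 4940.2 in MIDEAS+/+ MEFs. Here MIDEAS-/- replicate 1 fell among the wild types, and the change was not called (log2 fold change 0.45, standard error 0.21, adjusted p = 0.312, limma). Peg3 had 5855 and 8187 normalized counts in DNTTIP1-/- MEFs, against 2822 and 3889 in DNTTIP1+/+ MEFs, with no overlap (log2 fold change 1.06, standard error 0.25, adjusted p = 0.323, limma). Usp29, a ubiquitin-specific protease transcribed away from Peg3, had 168, 174 and 252 normalized counts in MIDEAS-/- MEFs, against 82.5, 72.6 and 93.9 in MIDEAS+/+ MEFs (log2 fold change 1.23, standard error 0.38, adjusted p = 0.129, limma). It had 122 and 312 normalized counts in DNTTIP1-/- MEFs, against 58.0 and 115 in DNTTIP1+/+ MEFs (log2 fold change 1.24, standard error 0.47, adjusted p = 0.648). Knockout libraries were above their wild types in both families, and the spread between lines of a group was wide.

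Peg3 and Usp29 share a bidirectional promoter, and their windows overlap over 263 bases on opposite strands, with start sites 164 bases apart. Their levels followed each other over the 10 libraries (Pearson's r = 0.840, permutation p = 0.0024, adjusted over 9 pairs of neighbours 0.0216; Spearman's rho = 0.842, permutation p = 0.00345, adjusted 0.0310). With group means removed, r was 0.804 (exact p = 0.0833 over 144 arrangements within groups, adjusted 0.406). Without the 2 libraries farthest from the median of Peg3, r was 0.721 (permutation p = 0.0452, adjusted 0.181). In the 6 MIDEAS family libraries alone r was 0.830 (exact p = 0.0306, adjusted 0.275), and the 4 DNTTIP1 family libraries are too few for a value. Of the other 8 pairs of neighbours, Meg3 and Rian had r = 0.678 (permutation p = 0.0175, adjusted 0.0790) and rho = 0.636 (permutation p = 0.0551, adjusted 0.248). Without the 2 farthest libraries their r was 0.685 (permutation p = 0.0605, adjusted 0.181), and it was 0.401 with group means removed (exact p = 0.188). Dlk1 and Meg3 had r = -0.577 (permutation p = 0.0816, adjusted 0.245) and rho = -0.539 (permutation p = 0.114), and r = -0.587 without the 2 farthest libraries (permutation p = 0.132).

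**Figure D3:**
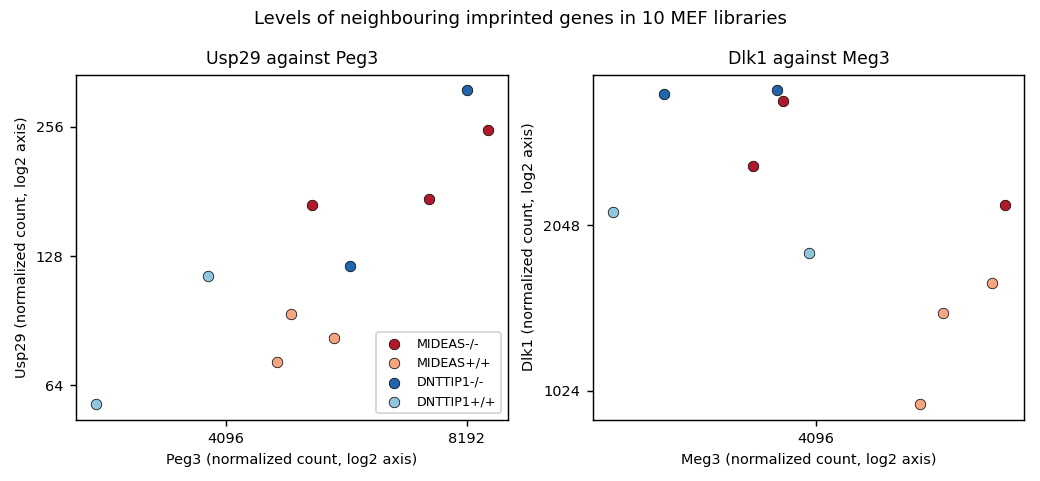
Normalized counts of Usp29 against Peg3 and of Dlk1 against Meg3 in the 10 libraries, on log2 axes, with a point per library coloured by group. Usp29 rises with Peg3 (r = 0.840), whereas the MIDEAS+/+ points lie at high Meg3 and low Dlk1 and the DNTTIP1-/- points at high Dlk1.

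The Peg3 window (chr7:6730370-6730669, minus strand) is shown with the motif GGGGCCCC in capitals, a palindrome bound by the Plagl1 protein and so read alike on both strands. The Usp29 window holds the same copy. Among the 41 members with a promoter window in RefSeq, 4 held GGGGCCCC (Peg3, Usp29, Ppp1r9a and Rasgrf1). It was in 6.45% of the members' 62 windows, against 1.49% of the 14187 windows of tested genes and 1.08% of all windows. The copy shared by Peg3 and Usp29 is counted in both windows, and Rasgrf1 was not a tested gene. The match is a description of the sequence.
Peg3: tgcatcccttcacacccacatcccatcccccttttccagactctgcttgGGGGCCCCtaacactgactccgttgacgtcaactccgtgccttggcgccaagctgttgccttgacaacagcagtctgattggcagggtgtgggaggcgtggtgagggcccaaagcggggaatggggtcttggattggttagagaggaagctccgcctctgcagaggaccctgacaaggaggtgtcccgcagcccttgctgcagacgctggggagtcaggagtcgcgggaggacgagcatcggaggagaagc

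The Zim1 window (chr7:6696383-6696682, minus strand) and the Plagl1 window (chr10:13090582-13090881, plus strand) belong to the 2 other called members with an entry besides Dlk1. They are shown with CG in capitals, of which they hold 20 and 26.
Zim1: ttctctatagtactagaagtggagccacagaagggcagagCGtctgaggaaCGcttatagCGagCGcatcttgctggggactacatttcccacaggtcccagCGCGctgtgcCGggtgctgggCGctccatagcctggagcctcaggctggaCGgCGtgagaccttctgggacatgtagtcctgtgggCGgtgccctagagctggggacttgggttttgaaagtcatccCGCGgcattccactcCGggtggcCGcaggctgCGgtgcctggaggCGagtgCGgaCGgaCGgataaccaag
Plagl1: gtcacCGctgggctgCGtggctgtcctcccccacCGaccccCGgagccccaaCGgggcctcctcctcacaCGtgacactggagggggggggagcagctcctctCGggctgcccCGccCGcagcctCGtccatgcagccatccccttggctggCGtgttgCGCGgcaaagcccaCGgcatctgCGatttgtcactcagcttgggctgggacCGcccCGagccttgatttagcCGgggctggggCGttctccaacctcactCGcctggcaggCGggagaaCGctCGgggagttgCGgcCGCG

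By gene, the median CG count of the richest window was 17 over the 41 members, against 22 over 11102 tested genes and 8 over all 27025 genes of the promoter table. The sequence TGCCGC, the core recognised by the imprint-keeping factor ZFP57 when methylated, was searched on both strands and was in 22.6% of the members' 62 windows and in 11.6% of all windows (18.7% of windows of tested genes). It does not overlap GGGGCCCC as a motif. By gene, TGCCGC was in a window of 31.7% of the 41 members and of 21.9% of tested genes. These members were Copg2, Grb10, Igf2, Mcts2, Meg3, Mest, Nap1l5, Nnat, Osbpl5, Plagl1, Snrpn, Zdbf2 and Zim1.

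Plagl1 (ENSMUSG00000019817, chr10:13060504-13131694, plus strand), a paternally expressed zinc finger transcription factor known for regulating other imprinted genes, had 2494, 3383 and 3389 normalized counts in MIDEAS-/- MEFs, against 1324, 715 and 1820.4 in MIDEAS+/+ MEFs. The knockout libraries were all above the wild types, whose own values spread widely, with a mean of 3088 ± 515 in MIDEAS-/- and 1287 ± 553 in MIDEAS+/+ MEFs (SD, n = 3 each), and a log2 fold change of 1.35 ± 0.30 (standard error) at an adjusted p of 0.0434 (limma). The call was lost without MIDEAS-/- replicate 2 (adjusted p = 0.140) or replicate 3 (adjusted p = 0.127), and the adjusted p ran from 0.000922 to 0.140 over all settings tried. Plagl1 had 2451 and 2620.1 normalized counts in DNTTIP1-/- MEFs, against 1619.7 and 1117 in DNTTIP1+/+ MEFs (log2 fold change 0.91, standard error 0.36, adjusted p = 0.706).

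In the Igf2/H19 domain the fetal growth factor Igf2 was higher at an unadjusted p under 0.05 in both knockouts without being called by limma, and H19 was not past that level in either. Igf2 (ENSMUSG00000048583, chr7:142650766-142666816, minus strand) had 1073, 1231 and 1519 normalized counts in MIDEAS-/- MEFs, against 778, 704 and 1037 in MIDEAS+/+ MEFs (log2 fold change 0.61, standard error 0.19, adjusted p = 0.13, limma). No knockout library overlapped the wild types, and Igf2 was called without MIDEAS+/+ replicate 3 (adjusted p = 0.0797, with a range of 0.0194 to 0.455 over all settings tried). Igf2 had 1421 and 1539.7 normalized counts in DNTTIP1-/- MEFs, against 669 and 936 in DNTTIP1+/+ MEFs (log2 fold change 0.90, standard error 0.23, adjusted p = 0.364, limma). H19, a noncoding RNA of the maternal copy that hosts the microRNA miR-675, was the most abundant member per kilobase of exon (1196 normalized counts per kilobase on average). It had 3336, 2205 and 3174 normalized counts in MIDEAS-/- MEFs, against 3051, 2463 and 2388 in MIDEAS+/+ MEFs, and its log2 fold change was 0.13 (standard error 0.16). In the DNTTIP1 family the log2 fold change of H19 was 0.14 (standard error 0.20). Across the 10 libraries Igf2 and H19 had r = 0.251 (permutation p = 0.475, adjusted 0.713) and rho = 0.467 (permutation p = 0.179, adjusted 0.402), and r was 0.645 without the 2 farthest libraries (permutation p = 0.0587). Exons of Igf2 overlap the antisense gene Igf2os, which cannot be told apart without strand.

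In the Igf2r domain neither member was called, and the antisense RNA Airn had no overlap with the wild types in either family. Igf2r encodes the receptor that carries IGF2 to lysosomes. Igf2r had 6598, 8446 and 10791 normalized counts in MIDEAS-/- MEFs, against 9064, 8457 and 8773 in MIDEAS+/+ MEFs (log2 fold change -0.05, standard error 0.17, adjusted p = 0.915, limma), and MIDEAS-/- libraries included both the lowest and the highest value. Airn, the paternally expressed noncoding RNA that silences Igf2r in cis, had 227, 211 and 159 normalized counts in MIDEAS-/- MEFs, against 146, 86.9 and 134 in MIDEAS+/+ MEFs (log2 fold change 0.72, standard error 0.27, adjusted p = 0.212), without overlap. In DNTTIP1-/- MEFs the log2 fold change was 0.52 for Airn and 0.31 for Igf2r, with no overlap and no call for either. Grb10, an adaptor that restrains insulin and IGF signalling from the maternal copy, had log2 fold changes of 0.05 in MIDEAS-/- and 0.31 in DNTTIP1-/- MEFs, and its neighbour Ddc, an enzyme of dopamine and serotonin synthesis, had 0.07 and 0.58, all uncalled. Of 5 listed IGF2 partners (the receptors Igf1r and Insr and 3 Igf2bp genes), 0 were called in either knockout by limma, and at an unadjusted p under 0.05 limma gave 1 lower in MIDEAS-/- and 0 in DNTTIP1-/- MEFs.

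In the domain of Kcnq1ot1, the member that rose was the growth inhibitor. Cdkn1c (ENSMUSG00000037664, chr7:143458339-143461050, minus strand), which encodes the cyclin-dependent kinase inhibitor p57, had 1116, 656 and 898 normalized counts in MIDEAS-/- MEFs, against 461, 508 and 552 in MIDEAS+/+ MEFs. All knockout libraries were above all wild types, with a mean of 890.2 ± 230.1 in MIDEAS-/- and 507 ± 45.1 in MIDEAS+/+ MEFs (SD, n = 3 each), and a log2 fold change of 0.78 ± 0.18 (standard error) at an adjusted p of 0.0543 (limma). The call was lost without MIDEAS-/- replicate 1 (adjusted p = 0.104) or replicate 3 (0.141), or MIDEAS+/+ replicate 1 (0.145) or replicate 2 (0.186), with a range of 0.00207 to 0.186 over all settings tried. MIDEAS+/+ replicate 1 is the only line of the family without Xist. Cdkn1c had 736 and 802 normalized counts in DNTTIP1-/- MEFs, against 539 and 639 in DNTTIP1+/+ MEFs (log2 fold change 0.39, standard error 0.23, adjusted p = 0.859). Kcnq1ot1, the paternal noncoding RNA that silences the domain, had 106, 232 and 101 normalized counts in MIDEAS-/- MEFs, against 165, 141 and 161 in MIDEAS+/+ MEFs (log2 fold change -0.19, standard error 0.41, adjusted p = 0.87), and these groups overlapped. Its log2 fold change in DNTTIP1-/- MEFs was 0.97 (standard error 0.51). Nap1l4, Osbpl5 and Tssc4, which flank these genes and are imprinted mainly in placenta, lay between -0.17 and 0.05 on the log2 scale in both knockouts. Phlda2 and Slc22a18 varied widely between lines, with log2 fold changes of -0.11 and 0.85 in MIDEAS-/- MEFs (standard errors 1.09 and 0.73). Ascl2, a trophoblast factor, had at most 6.65 normalized counts in any library and was not tested.

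**Figure D4:**
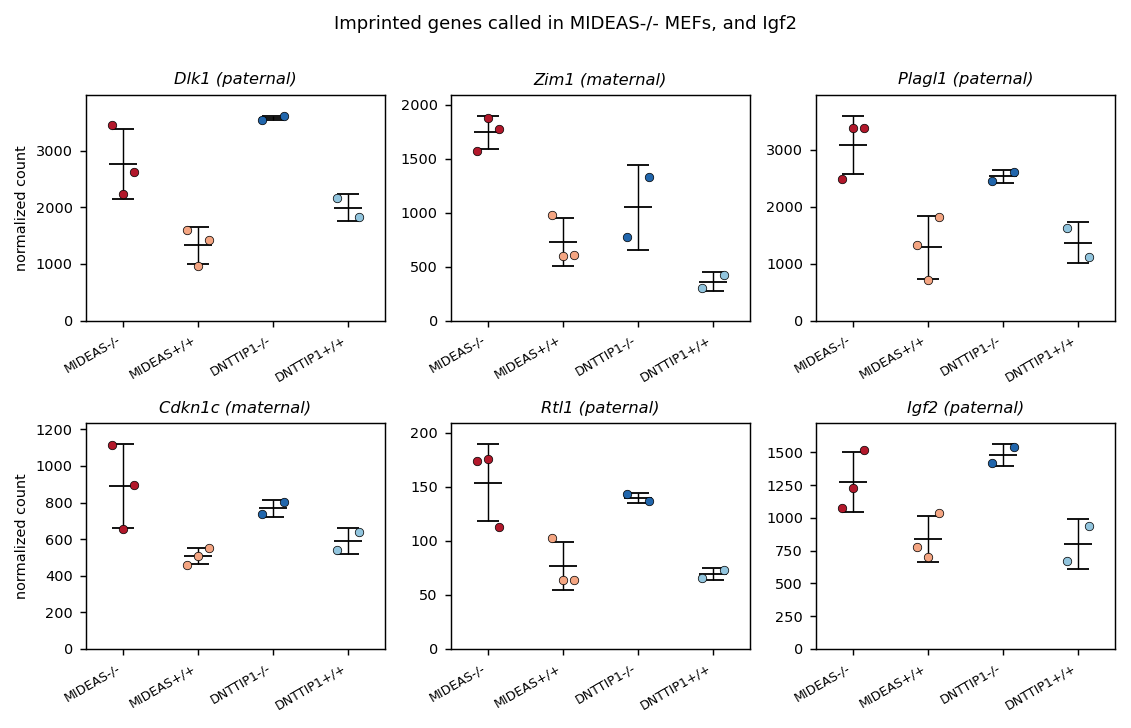
Normalized counts of the 5 imprinted genes called in MIDEAS-/- MEFs, and of Igf2, in each library (points), with the mean and SD of each group (bars) and the parental copy in each title. In all 6 genes the MIDEAS-/- points lie above all MIDEAS+/+ points, and both DNTTIP1-/- points above both DNTTIP1+/+ points.

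On chromosome 6 the paternally expressed Peg10, Mest and Nap1l5 were higher in every knockout library of both families, and none was called by limma. Peg10, a retrotransposon-derived gene needed in placenta, had 1346, 1787 and 1406 normalized counts in MIDEAS-/- MEFs, against 943, 994 and 997 in MIDEAS+/+ MEFs (log2 fold change 0.62, standard error 0.20, adjusted p = 0.146, limma). Peg10 had 2186 and 3059.7 normalized counts in DNTTIP1-/- MEFs, against 817 and 1374 in DNTTIP1+/+ MEFs, the smallest p of any member there (log2 fold change 1.29, standard error 0.25, adjusted p = 0.202, limma). Both comparisons were free of overlap. Peg10 had the smallest p of the members for a difference between the knockout effects (unadjusted p = 0.0616). Sgce, epsilon-sarcoglycan, starts next to Peg10 on the other strand and is also paternally expressed, and its log2 fold changes were 0.23 and -0.07, both with overlapping groups. Asb4 and Ppp1r9a, maternally expressed genes of the same domain, were not called either. The log2 fold change of Asb4 was 0.14 in MIDEAS-/- MEFs and 0.79 in DNTTIP1-/- MEFs, and that of Ppp1r9a was 0.34 and 1.03.

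Mest, which encodes a hydrolase-like protein of mesoderm, had 2311, 2096 and 2613 normalized counts in MIDEAS-/- MEFs, against 1568, 364 and 1307 in MIDEAS+/+ MEFs (log2 fold change 1.36, standard error 0.45, adjusted p = 0.15, limma). MIDEAS+/+ replicate 2 was far below the other wild types, and Mest was called without MIDEAS+/+ replicate 1 (adjusted p = 0.0913, with a range of 0.0543 to 0.397 over all settings tried). Mest had 2473 and 2557 normalized counts in DNTTIP1-/- MEFs, against 1969 and 1293 in DNTTIP1+/+ MEFs (log2 fold change 0.66, standard error 0.55, adjusted p = 0.901). Its neighbour Copg2, a coatomer subunit whose exons overlap Mest on the other strand, had log2 fold changes of 0.29 and 0.05. Nap1l5, a retrogene of the nucleosome assembly protein family, had 69.2, 106 and 106 normalized counts in MIDEAS-/- MEFs, against 33.4, 25.5 and 56.3 in MIDEAS+/+ MEFs (log2 fold change 1.31, standard error 0.39, adjusted p = 0.115, limma). It was called without MIDEAS+/+ replicate 3 (adjusted p = 0.0822) and with either DNTTIP1+/+ library left out, with a range of 0.0371 to 0.401 over all settings tried. Nap1l5 had 132 and 179 normalized counts in DNTTIP1-/- MEFs, against 39.0 and 81.9 in DNTTIP1+/+ MEFs (log2 fold change 1.43, standard error 0.48, adjusted p = 0.568). Herc3, the ubiquitin ligase gene in whose intron Nap1l5 lies, fell, with 165, 381 and 361 normalized counts in MIDEAS-/- MEFs, against 490.3, 786 and 675 in MIDEAS+/+ MEFs (log2 fold change -1.17, standard error 0.32, adjusted p = 0.0917, limma).

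The Snrpn/Ndn domain, the mouse counterpart of the Prader-Willi and Angelman region, gave 0 calls in either knockout by limma and 0 of its 6 members at an unadjusted p under 0.05. Ndn, a MAGE family protein, had log2 fold changes of 0.08 in MIDEAS-/- and -0.02 in DNTTIP1-/- MEFs (standard errors 0.13 and 0.16). Ube3a, a ubiquitin ligase imprinted in neurons, had 0.01 and 0.24. Snrpn, a spliceosomal protein gene, had -0.25 and -0.35. Mkrn3, a makorin ring finger protein, had 0.36 and 0.30, and the retrogene Peg12 had 0.17 and 0.20. Magel2, a relative of Ndn, had 16.5 and 176 normalized counts in DNTTIP1-/- MEFs, against 4.22 and 28.3 in DNTTIP1+/+ MEFs, so that DNTTIP1-/- replicate 2 alone was high. That library also held the highest sum of the 6 skeletal muscle markers, 1539.7 normalized counts against 25.8 in DNTTIP1-/- replicate 1 and 25.3 and 838 in DNTTIP1+/+ replicates 1 and 2, and the part of such cells was not tested.

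Nnat, the paternally expressed neuronatin, lies inside Blcap, and neither was called. Nnat had 247, 350.4 and 466 normalized counts in MIDEAS-/- MEFs, against 119, 190.1 and 192 in MIDEAS+/+ MEFs (log2 fold change 1.07, standard error 0.49, adjusted p = 0.307, limma), with no overlap. Blcap had 911, 753 and 837 normalized counts in MIDEAS-/- MEFs, against 926, 1092 and 918 in MIDEAS+/+ MEFs (log2 fold change -0.23, standard error 0.13, adjusted p = 0.422), all below the wild types. Nnat had 218 and 826 normalized counts in DNTTIP1-/- MEFs, against 176 and 402 in DNTTIP1+/+ MEFs, and Blcap had a log2 fold change of -0.26. Replicate 2 was the higher for Nnat in both genotypes, as it was for Usp29, Zdbf2 and Magel2.

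Of the remaining domains, Gnas, the stimulatory G protein subunit, had 528, 720.1 and 533 normalized counts in MIDEAS-/- MEFs, against 432, 453 and 508 in MIDEAS+/+ MEFs (log2 fold change 0.34, standard error 0.16, adjusted p = 0.311, limma) and 537 and 587 normalized counts in DNTTIP1-/- MEFs, against 328 and 393 in DNTTIP1+/+ MEFs (log2 fold change 0.64, standard error 0.19, adjusted p = 0.495, limma). Counts of Gnas pool its maternal, paternal and biallelic isoforms. Zrsr1, a splicing factor retrogene, had log2 fold changes of 0.31 and 0.21 with no overlap in either family. Zdbf2, a zinc finger gene of the paternal copy, had 0.33 and 1.13 (standard errors 0.49 and 0.60). Slc38a4, an amino acid transporter, had 0.32 and 0.33, and Peg13, a noncoding RNA inside Trappc9, had 0.23 and 0.53. Impact, a regulator of the kinase GCN2, had -0.10 and 0.14, and H13, a signal peptide peptidase, had -0.15 and -0.10. Mcts2, a translation factor retrogene inside H13, had -0.08 and -0.27, and Inpp5f, a phosphoinositide phosphatase, had -0.02 and 0.05. None of these was called in either knockout by limma. Rasgrf1, imprinted mainly in brain, had at most 2.23 normalized counts in any library and was not tested.

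The 2 knockout effects were set against each other gene by gene. Of the 48 members, 0 were called for a difference between the knockout effects by limma, and 0 were past an unadjusted p of 0.05 by limma, where 2.79% of all genes were. edgeR and DESeq2 also called 0 members, where they called 0% and 0.074% of all genes, and limma called 0%. Across the 48 members the fold changes of the 2 knockouts had r = 0.620, against 0.520 across all 16227 genes, and genes are not independent replicates. Of the 48, 30 members were above 0 in both knockouts and 6 below 0 in both. Of all genes, 46.4% were above 0 in MIDEAS-/- and 50.1% in DNTTIP1-/- MEFs. The share of all genes with the same direction in both was not computed, so these counts have no background.

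The spread between lines of 1 genotype was close to that of other genes. The SD within groups on the log2 scale had a median of 0.291 over the 48 members, against 0.263 over all genes tested, and 27 members were above the all-gene median. It was largest for Magel2 (1.75), Phlda2 (1.59), Slc22a18 (1.08), Dio3 (0.867) and Zdbf2 (0.760), all at or above the 89.1 percentile of all genes. It was smallest for H13 (0.0697), at the 1.44 percentile. Exons of Plagl1, Cdkn1c, Gnas, Zrsr1, Ube3a and Snrpn also overlap those of other annotated genes. The same holds for H19, Usp29, Meg3, Rian, Mirg, Kcnq1ot1, Tssc4, Nnat, H13, Inpp5f and Zdbf2. Reads of all these members may be shared with a neighbour. Levels per kilobase of exon, averaged over the 10 libraries, ran from 1196 normalized counts for H19, 885 for Igf2r and 667 for Grb10 to 1.46 for the unspliced Kcnq1ot1 and 0.0649 for Rasgrf1.

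Genes that set or keep imprints were called at about the share of all genes. Of 28 listed genes for imprint maintenance and DNA methylation, 25 were tested and 1 was called, higher in MIDEAS-/- MEFs, with 0 lower, where 3.36% of all genes were called higher. At an unadjusted p under 0.05, 2 were higher and 0 lower, where 8.82% of all genes were higher. Limma called 0 in DNTTIP1-/- MEFs, where at an unadjusted p under 0.05 limma gave 1 higher and 0 lower. The called gene was Tet1, a dioxygenase that oxidises methylated cytosine, which had 248, 471 and 432 normalized counts in MIDEAS-/- MEFs, against 71.3, 70.5 and 131 in MIDEAS+/+ MEFs (log2 fold change 2.07, standard error 0.33, adjusted p = 0.0168, limma). Tet1 had 238 and 359.8 normalized counts in DNTTIP1-/- MEFs, against 81.2 and 104 in DNTTIP1+/+ MEFs (log2 fold change 1.66, standard error 0.41, adjusted p = 0.345, limma). The median log2 fold change of this list was 0.00 in MIDEAS-/- and 0.21 in DNTTIP1-/- MEFs. A further list of 52 genes that are imprinted in some tissue or neighbour the members had 38 tested genes, of which 5 rose (Klf14, Adam23, Dcn, Dhcr7 and Qpct) and 5 fell (Tnfrsf23, Herc3, Ampd3, Axl and Arhgap22) in MIDEAS-/- MEFs, where 3.36% of all genes were called higher and 2.29% lower. At an unadjusted p under 0.05, 7 were higher and 15 lower in MIDEAS-/- MEFs, where 8.82% and 7.83% of all genes were. The log2 fold change was above 0 for 15 of the 38, with a median of -0.28, so this list did not share the direction of the 48 members. In DNTTIP1-/- MEFs limma called 0 of the 38, with 3 higher and 2 lower at an unadjusted p under 0.05, and 19 were above 0, with a median of 0.02. Klf14, a maternally expressed transcription factor gene, had 68.2, 50.5 and 59.3 normalized counts in MIDEAS-/- MEFs, against 2.23, 0 and 11.0 in MIDEAS+/+ MEFs (log2 fold change 4.15, standard error 0.76, adjusted p = 0.0241, limma).

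Among markers of other cell types, the smooth muscle list was lower as a whole in MIDEAS-/- MEFs, with 0 of 5 log2 fold changes above 0. The macrophage list also had 0 of 6 above 0, and the skeletal muscle list had 4 of 4 tested above 0, where 46.4% of all genes were. The macrophage sum was 2980 in MIDEAS+/+ replicate 1, 966 and 620 in replicates 2 and 3, and 516 to 1136 in MIDEAS-/- MEFs. The skeletal muscle sum was 577 in MIDEAS-/- replicate 3, 12.4 and 110 in replicates 1 and 2, and 12.3 to 71.2 in MIDEAS+/+ MEFs. Each sum was thus high in a single library. The other tested lists held members of both directions. The 5 smooth muscle markers summed to 4378 to 6545 normalized counts in MIDEAS-/-, against 8018 to 12020 in MIDEAS+/+ MEFs, and to 5514 and 7369 in DNTTIP1-/-, against 8062 and 9200.2 in DNTTIP1+/+ MEFs. Limma called Myh11 and Des lower in MIDEAS-/- MEFs (2 of 5 tested), where it called 2.29% of all genes lower. The 6 neural markers summed to 3466 to 3869 in MIDEAS-/-, against 4529.5 to 7612 in MIDEAS+/+ MEFs, with Rbfox3 and Elavl3 averaging below 10 and 0 of 4 tested called. The lower sum was that of Nes (mean 1660.3 against 4375), while Tubb3 (1039 against 774) and Map2 (919 against 676) averaged higher in MIDEAS-/- MEFs. The 6 chondrocyte and osteoblast markers summed to 5384 to 6849 in MIDEAS-/-, against 4007 to 5465 in MIDEAS+/+ MEFs, so that these ranges overlapped, with Sox9 called higher and Acan averaging 181 against 351. In the DNTTIP1 family they summed to 8669.7 and 9647 in DNTTIP1-/-, against 4739 and 7222 in DNTTIP1+/+ MEFs, without overlap. Of the other lists, 1 of 10 fibroblast markers (Lum) and 1 of 3 tested endothelial markers (Tek) were called higher in MIDEAS-/- MEFs and 1 of 3 tested epithelial markers (Krt18) lower, while 0 of 6 macrophage, 0 of 4 tested skeletal muscle and 0 of 3 tested adipocyte markers were called by limma, with 0, 0 and 1 at an unadjusted p under 0.05. Of all genes, limma called 3.36% higher and 2.29% lower in MIDEAS-/- MEFs. At the unadjusted level 8.82% were higher and 7.83% lower. The part of any such cells in the levels of imprinted genes was not tested.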

How the data were processed

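Total RNA was extracted from 10 MEF lines and enriched for mRNA before sequencing, so levels of noncoding and unspliced RNAs depend on how far that step kept them. Per the labels, the authors trimmed reads with Trim Galore 0.4.5 and cutadapt 1.11, aligned them to mm10 with STAR 2.5.2b, removed duplicate reads with Picard, which lowers counts of abundant genes, and used SAMtools 1.3.2 and DESeq2. The strand setting of the counting was not given in the sources consulted. The deposited signal values are normalized counts, whole reads divided by 1 size factor per library, and 100% of the values gave whole reads within 0.01. Sheets of the authors' own fold changes and p-values were not used. They were tested on a log2(value + 1) scale, so that fold changes of low genes are understated, with limma 3.58.1 (trend and robust moderation, R 4.3.3) in 1 fit of 4 groups, for 16227 genes averaging 10 or more. Benjamini-Hochberg adjustment ran over all of them, and genes with an adjusted p under 0.1 were called. The fit was tested on simulated data. Alternatives were edgeR 4.0.16 and DESeq2 1.42.0 on the recovered reads (856 and 1674 of all genes called in MIDEAS-/- and 5 and 206 in DNTTIP1-/- MEFs), other pseudocounts, filters and scaling, separate fits, a replicate block and each library left out. Correlations used permutation tests, two-sided. Positions are from GENCODE M21 (GRCm38), and promoter windows and microRNAs from RefSeq GRCm38.p6, which matched 41 of 50 members. Genes named with values were members called in either knockout, up to 2 members of highest mean per domain, the 5 with the largest SD within groups, 20 well-known members, the targeted genes, sex markers, and called genes of other lists. Further members were named to account for all 50, after their values were seen. The members and lists were chosen with earlier results of these data known.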

Additional observations from a re-analysis of the deposited data

How the results depend on the processing

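The count of imprinted genes called in MIDEAS-/- MEFs was 5, all higher, with pseudocounts of 0.5 and 5, a mean of at least 50 and TMM scaling. It was 4 without a filter on low values and 4 by edgeR. It was 7 with a separate fit of each family, 12 with the replicate number as a block, 3 without a variance trend, 11 by DESeq2 and 3 at an adjusted p under 0.05. With 1 library left out it ran from 2 to 7, with 7 without DNTTIP1+/+ replicate 1. The count in DNTTIP1-/- MEFs was 0 in the other settings, and it was 1 without a filter (Peg10), 5 with the replicate block and 4 by DESeq2. The count for a difference between the knockouts was 0 in all settings run, and it has no value in separate fits. Samples with the same number deviated together at r = 0.206, -0.110 and -0.0494 in the MIDEAS family. In the DNTTIP1 family both pairs gave 0.656, which is 1 value, since deviations of 2 lines mirror each other. Number and sex go together there. The labels do not say that numbers pair lines, and the main fit did not take them to pair samples. The block called 6.83% of all genes higher in MIDEAS-/- and 0.401% in DNTTIP1-/- MEFs. No called value changed sign. Over the named genes and settings, 1621 values kept their side of the threshold and, where not called, moved by less than the standard error. Of the others, 30 passed the threshold, 23 fell below it and 44 moved by the standard error or more. Values near 0 that were not called could change sign, and Nap1l4 in MIDEAS-/- MEFs did so 4 times. For the correlations of neighbours, values are given beside each pair. No scaling moved the median of all genes by over 0.1. With 2 DNTTIP1 lines a genotype, a left-out library leaves 1, assumed to vary like the others. The cause was not tested.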
